A study of Mus musculus with 16 samples.

Results

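The genes described here are 8 regulators of epithelial identity: the transcription factors *Ovol1*, *Ovol2*, *Grhl1*, *Grhl2* and *Elf3* and the RNA-binding proteins *Esrp1*, *Esrp2* and *Rbm47*. They were taken by name, and all 8 were among the 23609 genes of the deposited table. Each had a mean above the filter of 10 used here, so all 8 were among the 21034 genes tested. RNA-seq was performed on total RNA from primary mammary tumors of littermates that carried MMTV-PyMT alone (wildtype x PyMT) or MMTV-PyMT with 1 trapped allele of *Resf1* (gene trap x PyMT, *Resf1* +/-). Every tumor of both groups thus carries PyMT, an oncogene of polyomavirus that the MMTV promoter expresses mainly in mammary epithelium. The trap line has an EGFP/cre insertion in the first exon of *Resf1* and came from a repository. The paper describes it as a B6 line that was crossed to FVB mice with MMTV-PyMT. The age of the sampled animals is not given in the sources used here. The labels name 8 tumors per group, and 5 wildtype and 5 gene trap tumors could be matched to a column of values. The question was whether tumors with less *Resf1* differ in the genes that hold the epithelial state.

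Epithelial cells keep their identity through transcription factors that switch on adhesion genes and keep the epithelial-to-mesenchymal transition (EMT) program off. OVOL proteins are zinc finger repressors that silence EMT genes such as *Zeb1*, grainyhead-like (GRHL) proteins activate *Cdh1* and other junction genes, and ELF3 is an epithelial member of the ETS family. ESRP1 and ESRP2 are splicing factors that select epithelial exons in genes such as *Fgfr2* and *Cd44*, and RBM47 is an RNA-binding protein that affects splicing and mRNA stability in epithelia. In the mammary gland GRHL2, OVOL2 and the ESRP proteins are known as antagonists of ZEB1.

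The values are estimated counts per gene that the authors had normalized between tumors, so sequencing depth is not known. Column sums were 32151600 to 37121400 (wildtype) and 31995100 to 42153600 (gene trap). Over the whole table, gene trap replicate 2 was the tumor farthest from the rest, at 91.8 on the first principal component against -18.6 to -4.78, and values without it are given beside the results that it moved most. *Resf1* itself averaged 4099 ± 400 (SD, n = 5) without the trap and 3516 ± 361 (SD, n = 5) with it. The log2 difference was -0.22 (95% confidence interval -0.42 to -0.02, limma, unadjusted p = 0.0313, adjusted p = 0.9997, and exact two-sided permutation test, p = 0.0635). Without gene trap replicate 2, the tumor with the lowest *Resf1*, it was -0.17 (limma, unadjusted p = 0.0684). With all tumors, 3 of 5 gene trap tumors lay below the lowest wildtype tumor. All 8 luminal epithelial markers were measured, and their summed value was 82380 to 108800 in wildtype and 85710 to 115800 in gene trap tumors. Fibroblast markers, all 9 measured, summed to 50060 to 111400 and 69220 to 147000, respectively, so the RNA comes from whole tumors with stroma. In such bulk samples, fewer cells of a type and less RNA per cell cannot be told apart.

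No difference between gene trap and wildtype tumors was called for any of the 8 regulators. In limma's test the Benjamini-Hochberg adjusted p over all genes was 0.9997 for each of them, and 0 of the 8 had an unadjusted p under 0.05. Over all tested genes, 0 (0.0%) had an adjusted p under 0.05 and 2.28% had an unadjusted p under 0.05 (1.32% higher and 0.956% lower in gene trap tumors). The values of the groups overlapped for all 8 regulators, while 0.528% of all tested genes had groups that did not overlap (0.266% higher and 0.261% lower). Of the 8, 6 had a higher mean log2 value in gene trap tumors, beside 51.4% of all tested genes, and their median log2 difference was 0.05.

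**Figure D1:**
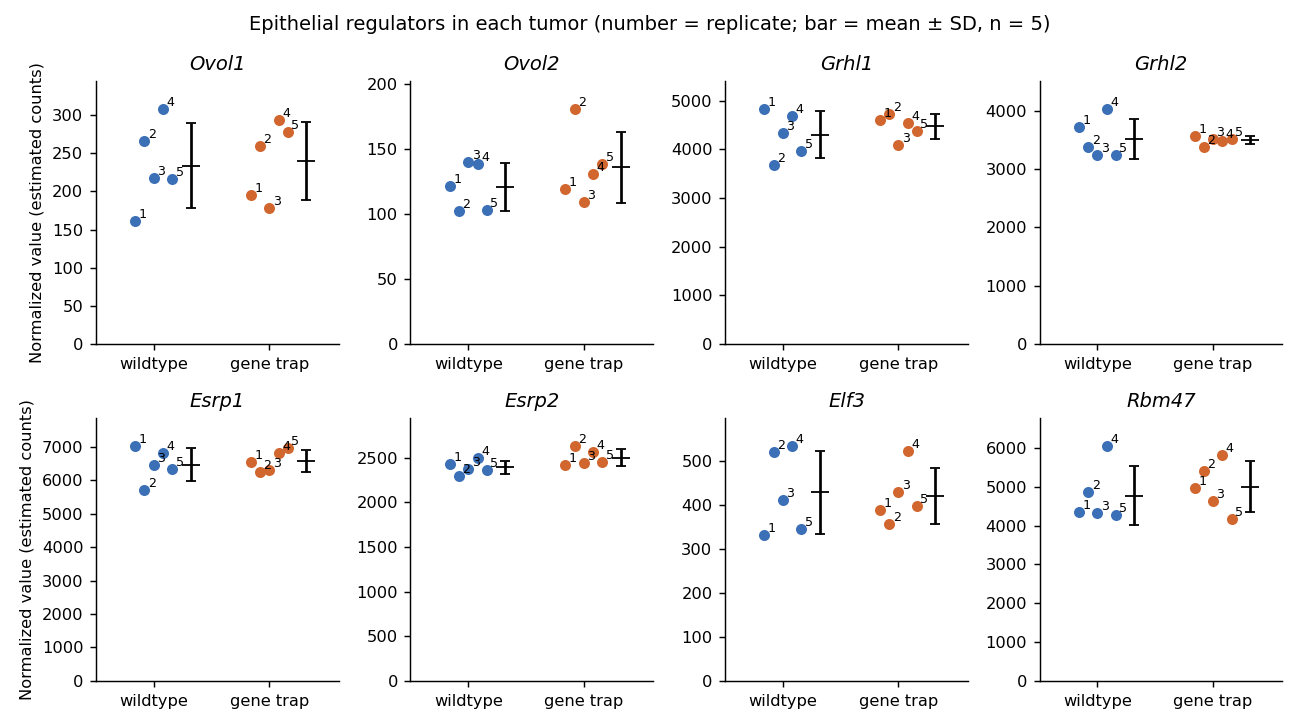
Normalized value (estimated counts, y axis from 0) of each of the 8 regulators in 5 wildtype (blue) and 5 gene trap (orange) tumors. Each point is a tumor labelled with its replicate number and the bar is the mean ± SD of the group. The groups overlap in every panel, and *Esrp2* and *Grhl2* show the tightest points among the gene trap tumors.

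The pair of OVO-like repressors had the lowest levels. *Ovol1* (ENSMUSG00000024922, chromosome 19) had normalized values of 161, 266, 217, 307 and 216 in wildtype replicates 1 to 5 and 195, 259, 178, 293 and 277 in gene trap replicates 1 to 5. The lowest and the highest tumor were both wildtype, so every gene trap tumor lay inside the wildtype range. The log2 difference was 0.05 (95% confidence interval -0.38 to 0.47, or 0.771 to 1.38 times the level of wildtype tumors). *Ovol2* (ENSMUSG00000037279, chromosome 2) was at 121, 102, 141, 139 and 103 in wildtype tumors and at 119, 181, 110, 131 and 139 in gene trap tumors. Gene trap replicate 2 was the only tumor above the wildtype range. The log2 difference of *Ovol2*, 0.16, was the largest of the 8 (95% confidence interval -0.21 to 0.52, exact two-sided permutation test, p = 0.373), and it was 0.05 without gene trap replicate 2.

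The grainyhead-like factors were both abundant. *Grhl1* (ENSMUSG00000020656, chromosome 12), which is best known from desmosome genes of the skin, had values of 4822, 3681, 4337, 4691 and 3965 in wildtype tumors and 4611, 4732, 4090, 4542 and 4369 in gene trap tumors. The wildtype range again enclosed every gene trap tumor, and the log2 difference was 0.06 (95% confidence interval -0.12 to 0.24). *Grhl2* (ENSMUSG00000022286, chromosome 15), the activator of *Cdh1* and claudin genes, was at 3722, 3381, 3233, 4024 and 3241 in wildtype tumors. In gene trap tumors it was at 3567, 3384, 3521, 3482 and 3511, a band with an SD of 68.1 against 344 in wildtype tumors. The means, 3520 in wildtype and 3493 in gene trap tumors, were nearly equal, with a log2 difference of -0.01 (95% confidence interval -0.16 to 0.15). The difference in SD was seen in the values and was not tested.

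*Elf3* (ENSMUSG00000003051, chromosome 1), an epithelial ETS factor that is also induced in inflammation, was at 331, 520, 411, 535 and 346 in wildtype tumors and at 388, 357, 430, 523 and 399 in gene trap tumors. Wildtype replicates 2 and 4 and gene trap replicate 4 were high, and all others were at or under 430.5. The log2 difference was -0.02 (95% confidence interval -0.36 to 0.33). A sequence from the promoter is shown for *Elf3* because ZEB and SNAI factors bind E-boxes, and it is the only 1 of 7 promoter entries, from the 4 regulators with an entry in RefSeq (GRCm38.p6), that holds the E-box CAGGTG on either strand in the 250 bases before the start. This E-box was present in 17.2% of 32851 promoter entries. The first base of the match lies 140 bases upstream of the start, in chr1:135258595-135258624 on the minus strand of GRCm38.p6, a build other than the mm39 of the deposited values, and capitals mark the E-box in its reverse complement.
Elf3 promoter: gaatatgcaaatCACCTGggacagggagcc
The OVOL motif CCGTTA and the GRHL motif AACCGGTT were in 0 of the 7 entries, against 2.18% and 0.116% of all entries, on both strands. *Ovol1*, *Grhl2*, *Esrp1* and *Esrp2* had no entry. A match of letters is not a bound site.

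Of the RNA-binding regulators, the ESRP genes had narrower values than *Rbm47*. *Esrp1* (ENSMUSG00000040728, chromosome 4) had values of 7023, 5714, 6447, 6805 and 6347 in wildtype tumors and 6547, 6235, 6289, 6825 and 6966 in gene trap tumors, all of the latter within the wildtype range. Its log2 difference was 0.03 (95% confidence interval -0.13 to 0.18). *Esrp2* (ENSMUSG00000084128, chromosome 8) was at 2426, 2296, 2380, 2500 and 2367 in wildtype tumors and at 2422, 2634, 2440, 2566 and 2458 in gene trap tumors. Gene trap replicates 2 and 4 lay above every wildtype tumor, and no gene trap tumor lay below the wildtype range. The log2 difference was 0.06 (95% confidence interval -0.06 to 0.19, limma, unadjusted p = 0.282). An exact two-sided permutation test gave p = 0.0794, where 0.00794 is the smallest p that 5 tumors against 5 allow. This exact p was the smallest among the 8 regulators and is not adjusted over them. *Rbm47* (ENSMUSG00000070780, chromosome 5) was at 4358, 4856, 4333, 6054 and 4277 in wildtype tumors and at 4967, 5410, 4646, 5833 and 4159 in gene trap tumors. Replicate 4 was the highest tumor in each group, and gene trap replicate 5 was the only gene trap tumor below the wildtype range. The log2 difference was 0.07 (95% confidence interval -0.18 to 0.32).

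**Figure D2:**
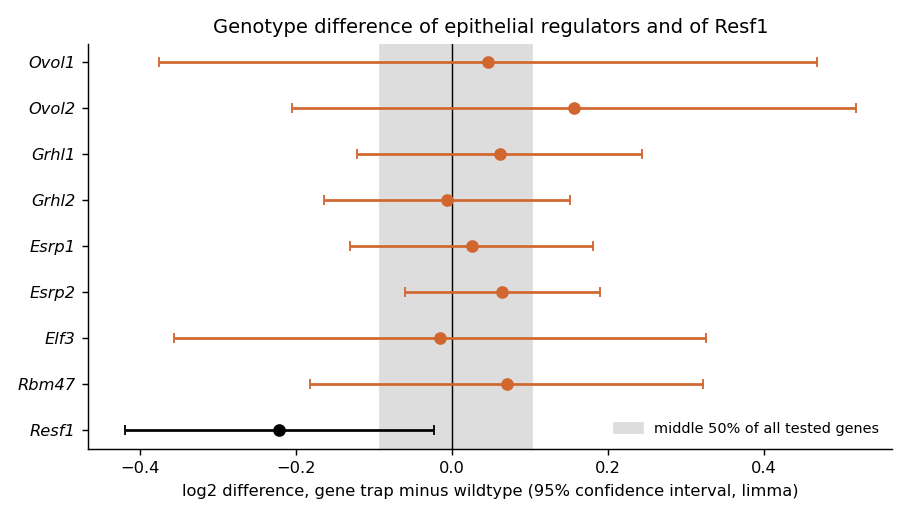
Log2 difference of gene trap minus wildtype tumors (x axis) with its 95% confidence interval from limma for the 8 regulators (orange) and *Resf1* (black), 5 tumors per group. The grey band is the middle 50% of all 21034 tested genes, from -0.09 to 0.10, and every interval of the 8 regulators includes 0.

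The confidence intervals can also be given as multiples of the wildtype level, and changes beyond them are not excluded. They ran from 0.893 to 1.11 times for *Grhl2*, from 0.914 to 1.13 times for *Esrp1* and from 0.959 to 1.14 times for *Esrp2*. Those of *Grhl1* and *Rbm47* ran from 0.919 to 1.19 times and from 0.882 to 1.25 times. The bounds were wider for *Elf3*, 0.781 to 1.25 times, and for *Ovol2*, 0.867 to 1.43 times. These are intervals for each gene on its own, and they are not adjusted for the number of genes.

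Levels of different genes were compared per kilobase of annotated exon, with the exons of all isoforms merged (GENCODE mouse release 21), since a longer transcript yields more reads. On this scale *Esrp1* was the highest of the 8, at 1034 ± 63.6 (SD, n = 10), and it exceeded *Grhl1* in all 10 tumors. *Grhl1* (792 ± 67.1) and *Rbm47* (683 ± 94.1) overlapped in range, with *Grhl1* higher in 9 of 10 tumors. *Rbm47* was above *Esrp2* (564 ± 22.7) in 10 of 10 tumors although their ranges overlapped as well. *Grhl2* followed at 407 ± 27.2 and *Elf3* at 191 ± 34.5, each with a range apart from its neighbors on this scale. The merged exons span 8613 bases for *Grhl2* and 4340 for *Esrp2*, while their longest coding transcripts have 4947 and 3536. The order of *Grhl2* and *Esrp2* thus depends on which length is used. *Ovol1* (67.9 ± 14.5) and *Ovol2* (60.9 ± 11.1) did not differ beyond their spread, and each was the higher of the pair in 5 tumors. *Esrp1* was above 93.4% of tested genes per kilobase, *Grhl2* above 80.6% and *Ovol2* above 37.8%.

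The ratio of 2 paralogs within a tumor does not depend on the scaling of that tumor. The 3 pairs were tested by exact two-sided permutation with adjustment over the 3. The *Ovol1* to *Ovol2* ratio of normalized values ran from 1.32 to 2.6 in wildtype and from 1.43 to 2.23 in gene trap tumors, with a log2 difference of -0.11 (standard error 0.21, exact permutation test, p = 0.619, adjusted p = 0.619). The *Grhl1* to *Grhl2* ratio ran from 1.09 to 1.34 and from 1.16 to 1.4, respectively (log2 difference 0.07, standard error 0.07, exact permutation test, p = 0.381, adjusted p = 0.619). The *Esrp1* to *Esrp2* ratio ran from 2.49 to 2.89 and from 2.37 to 2.83 (log2 difference -0.04, standard error 0.06, exact permutation test, p = 0.492, adjusted p = 0.619), and without gene trap replicate 2 this difference was -0.0022. In all 3 pairs the ratios overlapped between the groups, and the OVO-like pair had the widest range.

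The 8 regulators differed widely in how much they varied between tumors of the same group. *Esrp2* had a within-group SD of 0.05 on the log2 scale, and only 34 of the 21034 tested genes (0.162%) had a smaller one. Its highest tumor was 1.15 times its lowest. Among the 6383 genes with a mean of at least 1000, 0.423% had a smaller SD than *Esrp2*. With any 1 tumor left out, the share of all tested genes with a smaller SD stayed between 0.119% and 0.346%, the latter without gene trap replicate 4. *Esrp1* (SD 0.0949) and *Grhl2* (SD 0.0996) had 6.19% and 7.49% of all tested genes below them, and 15% and 18% of the genes with a mean of at least 1000. The shares of all tested genes were 11.8% and 15.2% without gene trap replicate 2. They fell to 1.8% for *Esrp1* without wildtype replicate 2 and to 1.15% for *Grhl2* without wildtype replicate 4. *Ovol1* was at the other end, with an SD of 0.336, more than that of 64.6% of tested genes, and its highest tumor was 1.91 times its lowest. *Elf3* (SD 0.27) and *Ovol2* (SD 0.248) lay near the median of all genes, which was 0.251. *Rbm47* (SD 0.201) had 38.7% of all tested genes below it, and 72.7% of those with a mean of at least 1000. This order did not hold after the mean of 8 epithelial genes was subtracted in each tumor, when the share of genes with a smaller SD was 16.8% for *Ovol1*, 11.5% for *Esrp2*, 23.5% for *Grhl2* and 27.9% for *Esrp1*.

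**Figure D3:**
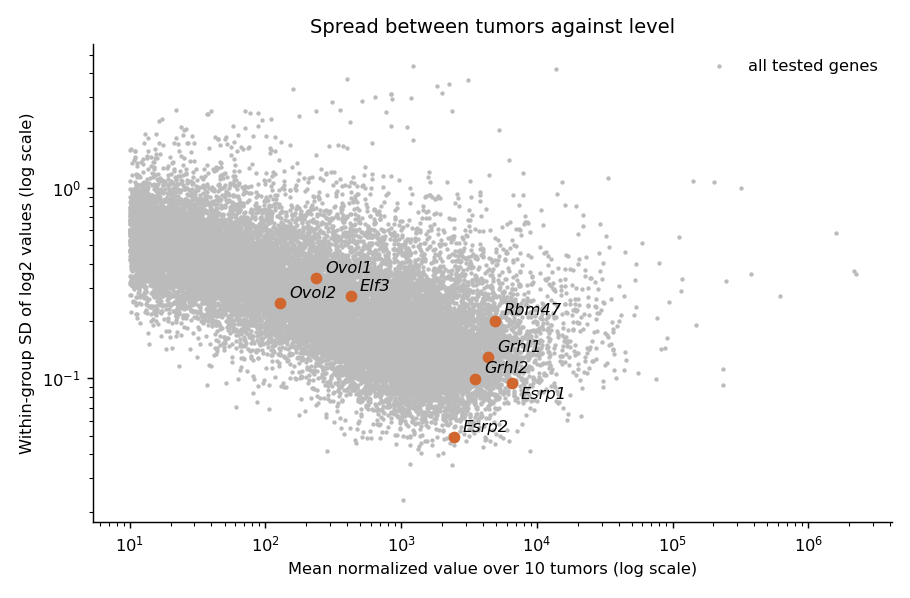
Within-group SD of the log2 values (y axis, log scale) against the mean normalized value over 10 tumors (x axis, log scale) for all tested genes (grey) and the 8 regulators (orange). *Esrp2*, at an SD of 0.05, lies at the lower edge of the cloud, and *Ovol1*, *Ovol2* and *Elf3* lie at lower means with SDs of 0.248 to 0.336.

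The tumors could also be read across the 8 genes. Wildtype replicate 4 was above the median of all tumors for 8 of the 8 and was the highest tumor for *Ovol1*, *Grhl2*, *Elf3* and *Rbm47*. Gene trap replicate 4 was above the median for 7 of the 8. Wildtype replicate 5 was above the median for 0 of the 8, and wildtype replicate 2 was the lowest tumor for 4 of them (*Ovol2*, *Grhl1*, *Esrp1* and *Esrp2*). Wildtype replicate 4 had the lowest fibroblast marker sum of all tumors (50060). In wildtype replicate 5 this sum was 111400, and the endothelial (4722), macrophage (15880) and muscle (11500) marker sums were the highest of all tumors. In wildtype replicate 2 the fibroblast marker sum was 76000, and its macrophage marker sum (9789) was the lowest. Its basal (9935) and keratinocyte (1300) marker sums were the highest of all tumors, the latter from only 2 of 8 listed markers. Gene trap replicate 1, with the highest fibroblast marker sum of all tumors (147000), was above the median for 4 of the 8. The part of these cell types in the levels of the 8 genes was not tested.

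Across the 10 tumors, 22 of the 28 pairs of regulators had a positive Pearson's r, with a median of 0.36. The highest r was that of *Ovol2* and *Esrp2* (r = 0.793, permutation p = 0.00652, adjusted p over the 28 pairs 0.182, Spearman's rho = 0.661, permutation p = 0.0434). It was 0.435 without the 2 tumors farthest from the median of either gene, 0.618 without gene trap replicate 2 and 0.37 with all 10 tumors after quantile normalization. Its size thus varied with the tumors kept and with the scaling. *Grhl1* varied with *Esrp1* (r = 0.74, permutation p = 0.0141, adjusted p = 0.182, rho = 0.539, permutation p = 0.115) and with *Esrp2* (r = 0.714, permutation p = 0.0195, adjusted p = 0.182, rho = 0.648, permutation p = 0.0478). Without the 2 farthest tumors on the axis of the splicing factor, these were 0.328 and 0.461, and without the 2 farthest on *Grhl1* they were 0.370 and 0.385. Leaving out the farthest tumors also narrows the range, which can lower r by itself, so these drops cannot show what the correlations rest on. Without gene trap replicate 2, *Grhl1* and *Esrp1* had r = 0.889 (permutation p = 0.0016, adjusted p = 0.0448), the only pair with an adjusted p under 0.05 in the 5 alternatives run for the pairs. *Ovol1* and *Elf3* had r = 0.653 (permutation p = 0.0457, adjusted p = 0.254, rho = 0.697, permutation p = 0.0304), which was 0.396 without the 2 farthest tumors on *Elf3*, 0.673 without the 2 farthest on *Ovol1* and 0.757 without gene trap replicate 2. With all 10 tumors, 0 of the 28 pairs had an adjusted p under 0.05, by r or by rho, and 5 had an unadjusted p under 0.05 by r. The groups of 5 were too small for a correlation within each. After removal of the group means, the number of pairs with an adjusted p under 0.05 was again 0. The same 5 pairs then had unadjusted permutation p of 0.00812 to 0.0435 by r.

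Each regulator was also compared with the mean log2 value of 8 epithelial genes (*Epcam*, *Cdh1*, *Krt8*, *Krt18*, *Krt7*, *Krt19*, *Cldn3* and *Cldn7*). *Ovol1* rose with this mean over the 10 tumors (r = 0.859, permutation p = 0.00261, adjusted p over the 8 regulators 0.0209, rho = 0.794, permutation p = 0.00868, adjusted p = 0.0694). The r was 0.876 without the 2 tumors farthest from the median of the epithelial mean, 0.726 without the 2 farthest on *Ovol1*, 0.913 without gene trap replicate 2 and 0.858 after removal of the group means. *Ovol2* had r = 0.662 (permutation p = 0.0352, adjusted p = 0.141, rho = 0.564, permutation p = 0.0971). The other 6 regulators had r between -0.172 (*Esrp1*) and 0.444 (*Rbm47*), with unadjusted p of at least 0.198. For the level of *Resf1*, r lay between -0.598 (*Esrp2*) and 0.506 (*Grhl2*), with a smallest adjusted p of 0.449 over the 8 permutation tests.

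**Figure D4:**
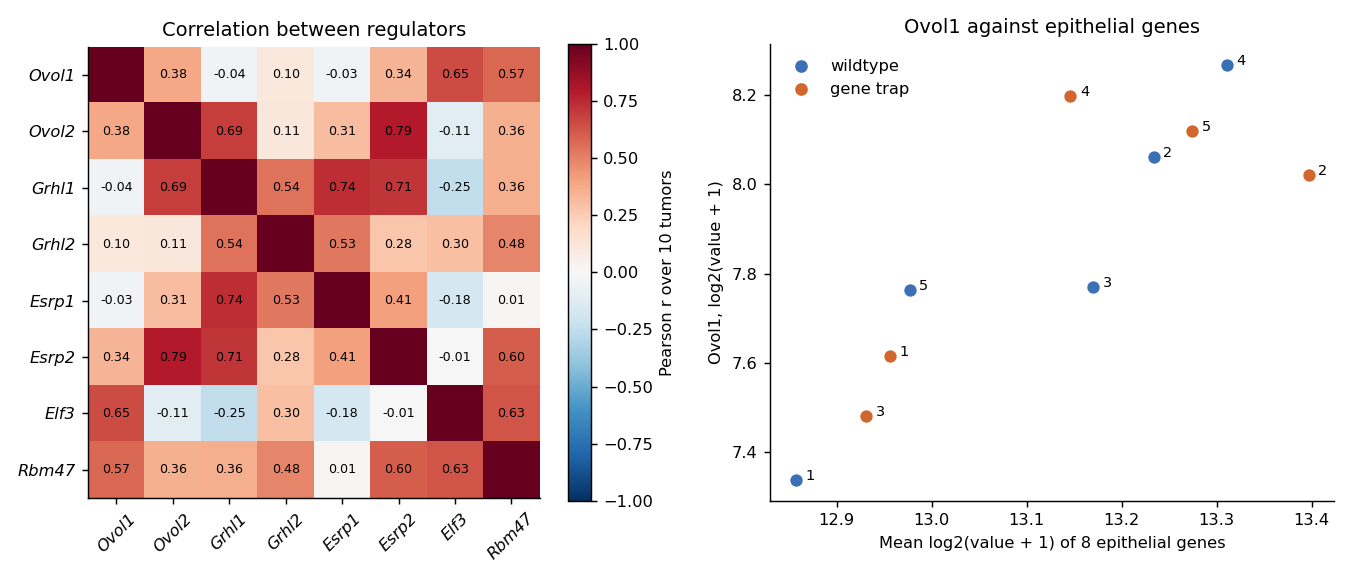
Left, Pearson's r over 10 tumors for each pair of the 8 regulators, from -0.25 to 0.79. Right, log2 value of *Ovol1* (y axis) against the mean log2 value of 8 epithelial genes (x axis) in each wildtype (blue) and gene trap (orange) tumor, labelled by replicate, with r = 0.859.

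By likeness to the mean z score of the 8 regulators over the 10 tumors, the closest of all other tested genes were *Gstm5* (r = 0.913), *Ascl4* (r = 0.902), *Gdf5* (r = 0.90), *Casp6* (r = 0.892) and *Ammecr1l* (r = 0.87). These are the largest r of all tested genes over 10 tumors and are given as a description. Without gene trap replicate 2 they were 0.936, 0.929, 0.892, 0.895 and 0.868. *Ascl4*, with values of 6.33 to 18.6, was near the filter on low values.

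Among the relatives of the 8 regulators, 12 of 15 were in the table and tested, and *Ovol3*, *A1cf* and *Rbm46* were not in it. None passed the threshold, 7 were higher and 5 lower, and the median log2 difference was 0.04, beside 0.005 over all tested genes. *Grhl3*, the third grainyhead-like gene, had only 24.0 ± 8.73 per kilobase in wildtype and 21.9 ± 3.66 in gene trap tumors (SD, n = 5). Among ETS factors of epithelia the level per kilobase of *Ehf* was far above that of *Elf3*, at 5815 ± 573 and 5520 ± 370 (SD, n = 5). *Elf5*, a regulator of the alveolar lineage, was at 1482 ± 246 and 1350 ± 175 (SD, n = 5) on the same scale. *Hnrnpr*, an RNA-binding relative of *Rbm47*, had the smallest p of the list, with normalized values of 4733 ± 582 and 5482 ± 528 (SD, n = 5) and a log2 difference of 0.22 (95% confidence interval 0.0011 to 0.43, limma, unadjusted p = 0.0490, adjusted p = 0.9997). With each tumor left out, this difference ran from 0.15 without wildtype replicate 4 (limma, unadjusted p = 0.133) to 0.27 without wildtype replicate 5 (limma, unadjusted p = 0.0175). Without gene trap replicate 2 it was 0.18 (limma, unadjusted p = 0.0987).

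The EMT factors that the regulators oppose also showed no called difference. Of 9 EMT-promoting transcription factors 8 were tested, as *Foxc2* was under the filter, and 0 passed the threshold, with 6 higher, 2 lower and a median log2 difference of 0.02, which ran from -0.0289 to 0.12 with each tumor left out (without gene trap replicate 1 and wildtype replicate 5, respectively). *Zeb1* had 45.2 ± 7.24 per kilobase in wildtype and 40.0 ± 10.5 in gene trap tumors, and *Zeb2* 66.6 ± 17.5 and 67.3 ± 17.7 (SD, n = 5). The log2 difference of *Zeb1* was -0.20 (95% confidence interval -0.58 to 0.18), and it was -0.0928 without gene trap replicate 2 and -0.071 with a weight per tumor. *Twist1* had the smallest p of this list, at normalized values of 37.7 ± 10.8 and 51.4 ± 8.02 (SD, n = 5) with a log2 difference of 0.47 (95% confidence interval -0.02 to 0.97, limma, adjusted p = 0.9997). Over all 10 tumors *Ovol1* had 67.9 ± 14.5 per kilobase, so *Zeb2* lay near *Ovol1* and *Zeb1* below it on that scale, a difference that was not tested. The merged exons span 19942 bases for *Zeb2*, 10266 for *Zeb1* and 3488 for *Ovol1*, so this order also depends on the annotated lengths.

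Of 25 epithelial junction, protease and keratin genes, all tested, 0 passed the threshold, 13 were higher and 12 lower in gene trap tumors, and the median log2 difference was 0.004, with -0.0248 to 0.0585 as each tumor was left out. *Cdh1*, which encodes E-cadherin, had normalized values of 12570 ± 1411 and 12300 ± 787 (SD, n = 5). *Cldn4*, a claudin gene regulated by GRHL2, had the smallest p of the list, at 2897 ± 462 and 2431 ± 526 (SD, n = 5) and a log2 difference of -0.27 (95% confidence interval -0.61 to 0.08, limma, adjusted p = 0.9997). Markers of basal (myoepithelial) cells, the other epithelial lineage of the gland, summed to 7421 to 9935 in wildtype and 5580 to 7497 in gene trap tumors (all 8 measured, exact two-sided permutation test, p = 0.0159, adjusted p = 0.143 over 9 marker lists). This list joins basal keratins with contractile genes, and the sum does not show which of them or which cells differed. The part of basal cells in the levels of the 8 regulators was not tested.

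ESRP proteins act on exons, which values per gene do not show, so the genes that carry these exons were examined only by their total level. Of 20 such genes, all tested, 0 passed the threshold, 5 were higher and 15 lower in gene trap tumors, beside 51.4% of all tested genes higher. The median log2 difference was -0.03, and it was -0.0002 without gene trap replicate 2 and -0.0061 without wildtype replicate 4. *Cd44* had normalized values of 3122 ± 219 and 2995 ± 218 (SD, n = 5). *Fgfr2*, the classic target of ESRP1 and ESRP2, was at 770, 636, 839, 537 and 562 in wildtype tumors and at 526, 401, 511, 470 and 1517 in gene trap tumors. Gene trap replicate 5 was thus the highest of all 10 tumors, and the other 4 gene trap tumors lay below every wildtype tumor. The log2 difference was -0.14 (95% confidence interval -0.80 to 0.52, limma, adjusted p = 0.9997) with all tumors and -0.47 (standard error 0.15, limma, unadjusted p = 0.00874, adjusted p = 0.9898) without gene trap replicate 5. In that tumor *Esrp1* was 6966 and *Esrp2* 2458, both inside the range of the other tumors.

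Of 18 other splicing regulators, all tested, 0 passed the threshold, 16 were higher and 2 lower in gene trap tumors, beside 51.4% of all tested genes higher, and the median log2 difference was 0.04, or 0.0234 without gene trap replicate 2. *Srsf3*, a general splicing factor, had the smallest p, with values of 7939, 8106, 8164, 7484 and 8122 in wildtype and 8893, 10840, 7797, 9043 and 9110 in gene trap tumors. Of the gene trap tumors 4 lay above every wildtype tumor, and replicate 3 lay within their range (log2 difference 0.19, 95% confidence interval 0.01 to 0.37, limma, unadjusted p = 0.0414, adjusted p = 0.9997). With each tumor left out in turn its log2 difference ran from 0.13, without gene trap replicate 2, to 0.25, without gene trap replicate 3. *Rbfox2*, which favors mesenchymal exons in EMT, had normalized values of 1779 ± 156 and 1818 ± 112 (SD, n = 5). Genes within a list are not independent of each other, and these counts carry no test.

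**Figure D5:**
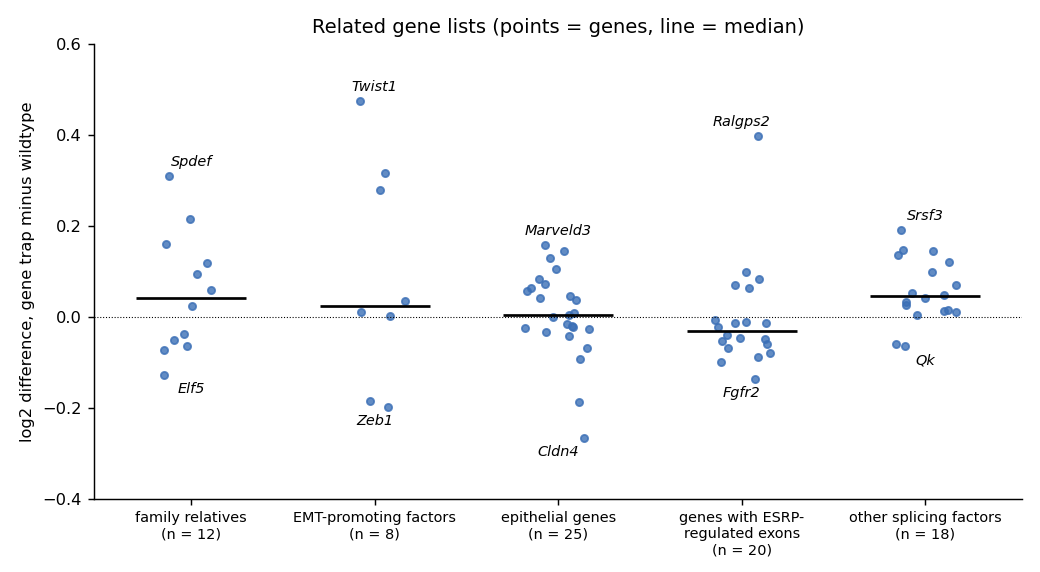
Log2 difference of gene trap minus wildtype tumors (y axis) for each tested gene (points) of 5 related lists, with the median as a line and the highest and lowest gene named. The medians lie between -0.03 and 0.04, and *Twist1* at 0.47 and *Cldn4* at -0.27 are the extremes.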

How the data were processed

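Mammary tumor RNA was prepared with a stranded total RNA kit per the labels. The authors deposited 1 table with a normalized signal per gene, made from estimated counts and scaled between tumors. The submitters' processing notes list Partek, STAR 2.7.8a, DESeq2 and mm39 without roles. The counter and its strand setting are not given in the sources used here, and each regulator but *Grhl1* overlaps an annotated gene on the opposite strand, and *Rbm47* also a gene on its own strand. Of 16 columns, 10 matched a tumor by name and 6, which matched none, were not used. The values hold 0 zeros and are not whole, so depth is unknown. Symbols matched 22899 of 23609 gene IDs.

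Tests used log2(value + 1). Genes with a mean of at least 10 entered limma 3.58.1 (in R 4.3.3) with a mean-variance trend, genotype as the sole term and Benjamini-Hochberg adjustment. The pseudocount shrinks the fold changes of low genes. Single values were compared by exact permutation over 252 arrangements, and correlations by 100000 permutations (Python 3.11.15). The labels name littermates but do not tie tumors to single animals, so p-values measure the spread between these samples, which may be technical.

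The 8 regulators and all lists were chosen with earlier results of these data known. Named genes are the 8 regulators, *Resf1*, up to 4 genes with the smallest p and fixed examples of each list, and the 5 genes closest to the mean z score. Alternatives were a replicate block, pseudocounts, filters, quantile normalization, no variance trend, tumor weights, an epithelial reference and each tumor left out. Promoter sequences are from RefSeq (GRCm38.p6), and exon lengths from GENCODE mouse release 21 (GRCm38).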

Additional observations from a re-analysis of the deposited data

Results flagged for a closer look

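Across 39 measures of single genes and ratios, each with 2 groups of 5 tumors, 4 of 78 groups had a highest or lowest tumor well separated from the rest by Dixon's test, where chance gives about 3.9 (1 in 20 groups). The values of the 8 regulators held none of the 4. *Fgfr2* reached 1517 in gene trap replicate 5, whereas the remaining gene trap tumors had 401 to 526. *Cldn7* reached 3893 in gene trap replicate 2, the remainder of that group having 2209 to 2553. *Twist1* reached 65.4 in the same tumor, with 45.3 to 50.3 in the remainder. *Slk* reached 6945 in wildtype replicate 5, whereas the remaining wildtype tumors had 5705 to 5913.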

How the results depend on the processing

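Over 19 alternatives, 0 of the 8 regulators had an adjusted p under 0.05 (smallest 0.9783), and the log2 differences of *Ovol2*, *Grhl1*, *Esrp2* and *Rbm47* stayed positive. The signs of the others, all close to 0, did not hold. *Ovol1* was at -0.0306 and *Grhl2* at 0.0046 with a weight per tumor, and *Esrp1* was at -0.0056 against the epithelial reference. With each tumor left out, the ranges were -0.0797 to 0.15 for *Ovol1*, -0.0352 to 0.0437 for *Grhl2*, -0.0183 to 0.0561 for *Esrp1* and -0.10 to 0.0715 for *Elf3*. The same fits gave -0.47 to 0.0074 for *Fgfr2* and -0.24 to 0.002 for the *Ovol1* to *Ovol2* ratio, and the cause was not tested. Over all genes, the number with an unadjusted p under 0.05, 479, was 178 with the epithelial reference and 308 to 692 with each tumor left out, the lowest without wildtype replicate 4. Without gene trap replicate 2, 1 pair of regulators passed the threshold for correlation against 0. Same-numbered tumors were not treated as pairs in the main fit (correlation of deviations from -0.156 to 0.149), and these correlations cannot show whether they shared a litter or batch. With the replicate block, 426 genes had an unadjusted p under 0.05 and 0 an adjusted p under 0.05, and no call changed. Depth is unknown, so the counting error of *Ovol1* and *Ovol2* cannot be given.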

Other observations

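The longest coding transcript of each regulator was searched for a G-quadruplex pattern, 4 runs of at least 3 G with 1 to 7 bases between them, on both strands. The study links RESF1 to quadruplexes built mostly of shorter G runs, which this pattern misses, so the counts do not bear on those structures. On the coding strand 0 of the 8 regulators held it, beside 21.8% of 14520 tested coding genes. On the other strand 4 of the 8 held it once (*Grhl2*, *Esrp1*, *Esrp2* and *Rbm47*), beside 27.4%, and 0 held it on both, beside 9.38%. In the 250 bases upstream of the start, 0 of the 7 promoter entries held the pattern, beside 16.7% of all entries. GC content of these transcripts ran from 47.4% (*Rbm47*) to 56.5% (*Elf3*), with a median of 50.2% over all tested coding genes. These are counts of letters, in spliced transcripts whose exon junctions can create or break a run, and no quadruplex was measured here.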
